A study of Bos taurus with 6 samples.

Results

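The fibroblast growth factor (FGF) system was examined in bovine cumulus cells through 10 genes: FGF11, the ligands FGF1, FGF2, FGF7 and FGF10, the receptors FGFR1, FGFR2, FGFR3 and FGFR4, and the feedback inhibitor SPRY1. Members were taken by gene symbol, as every probe set that the platform annotation gives to one of these genes and to no other. Of the 10 genes, 9 had a probe set, with 34 probe sets in all, out of 9155 genes and 24016 probe sets. FGF7 was not analysed here. The set was proposed with the difference between the groups already known, at least for FGF11, so the members' differences are a description and their count supports nothing by itself.

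Secreted FGFs bind receptor tyrosine kinases on the cell surface together with heparan sulfate chains. The activated receptor recruits adaptor proteins and signals through RAS and the kinases of the ERK cascade, and the same signal induces inhibitors such as the Sprouty proteins and the dual-specificity phosphatases, which damp it. FGF11 belongs to a branch of the family that stays inside the cell, is not secreted in the classical way and is best known for binding voltage-gated sodium channels. In the ovary, FGFs made by the oocyte, the theca and the granulosa cells act on the somatic cells of the follicle, and in mice oocyte FGFs promote glycolysis in cumulus cells.

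Cumulus cells surround the oocyte in the follicle, and here they were stripped by pipetting from cumulus-oocyte complexes of slaughtered crossbred cows (Bos indicus x Bos taurus). The labels give 3 large-follicle pools, from complexes of follicles of 8 mm or more, which the submitters call competent, and 3 small-follicle pools, from follicles of 1 to 3 mm, which they call incompetent. All complexes in both groups had been selected for an evenly granulated cytoplasm and a compact cumulus of at least 3 cell layers, and follicle size serves as a stand-in for the capacity of the oocyte to develop. Each pool was measured on 1 Affymetrix bovine array, and the deposited values are log2 signals made by RMA, so a difference of 1 is a doubling. The titles call the arrays biological replicates, and the labels do not state whether same-numbered pools come from the same collection. How many cows went into a pool is unstated in the labels, so each p-value reflects pool-to-pool spread, and precision is limited by having 3 arrays per group.

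FGF11 and SPRY1 had clearly more signal in cumulus cells of large follicles, by about the same amount. The receptors and their ligands differed little or gave probe sets that disagreed. The brighter FGF11 probe set read 8.26, 8.53 and 8.17 in large-follicle arrays 1, 2 and 3, and 6.06, 5.77 and 6.50 in small-follicle arrays 1, 2 and 3. All large-follicle arrays lay above all small-follicle arrays, with small-follicle array 3 the highest of its group. The means were 8.32 ± 0.19 and 6.11 ± 0.37 (SD, n = 3 each), a log2 difference of 2.21 ± 0.19 (limma SE), or 4.63-fold. By size of increase it ranked 18 among the 24016 probe sets.

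The dimmer FGF11 probe set gave the same picture. It read 6.90, 7.19 and 6.47 in large-follicle arrays 1, 2 and 3 and 4.61, 4.74 and 5.30 in small-follicle arrays 1, 2 and 3. The groups again did not overlap, and the log2 difference was 1.97 ± 0.22, or 3.92-fold. Within the large-follicle group both FGF11 probe sets were highest in array 2 and lowest in array 3.

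SPRY1, a Sprouty protein that restrains ERK signalling downstream of receptor tyrosine kinases, is read by 1 probe set. Its signal was 8.56, 8.68 and 8.43 in large-follicle arrays 1, 2 and 3, against 6.40, 6.37 and 7.14 in small-follicle arrays 1, 2 and 3. The large-follicle arrays lay close together and above every small-follicle array, and small-follicle array 3 was the highest of its group. The means were 8.56 ± 0.13 and 6.64 ± 0.44 (SD, n = 3 each), a log2 difference of 1.92 ± 0.20, or 3.78-fold. With no second probe set, the SPRY1 value has no check from another part of the transcript.

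**Figure D1:**
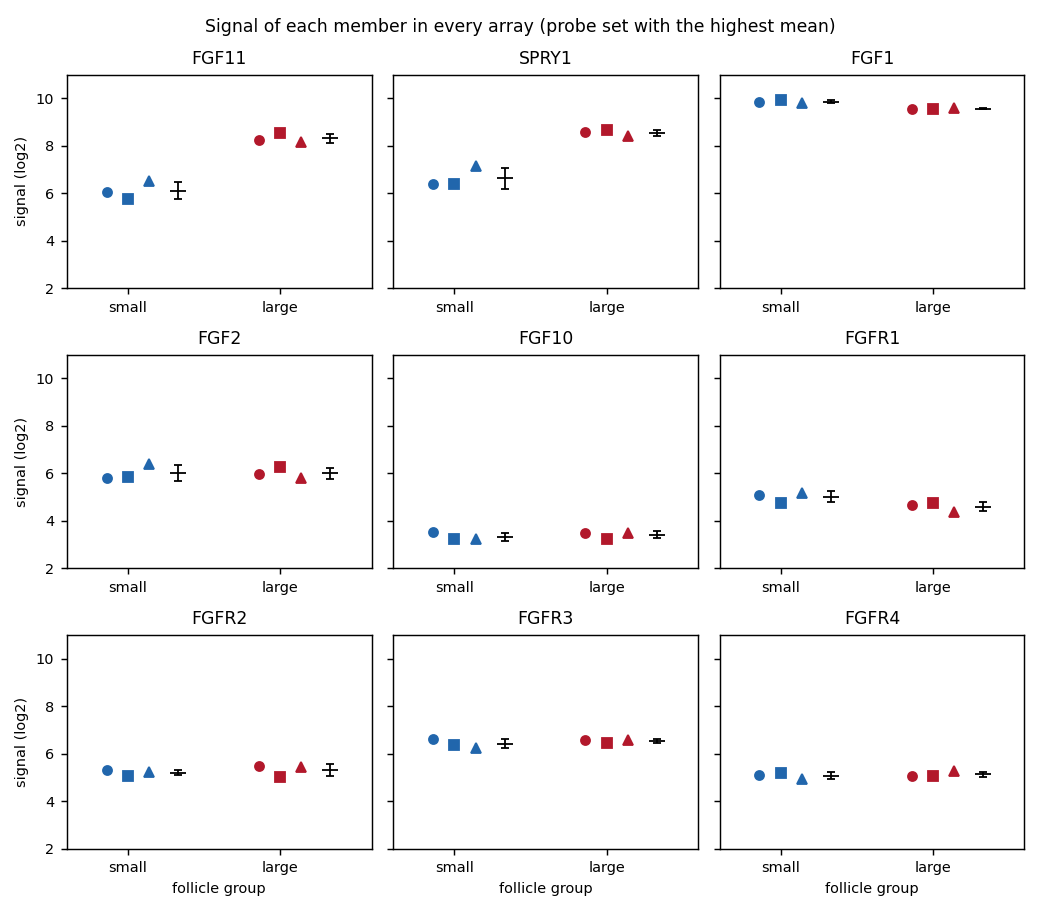
Signal (log2, vertical axis) of the probe set with the highest mean for each of the 9 measured members in the small-follicle and large-follicle arrays. Circles, squares and triangles are arrays 1, 2 and 3, and the black bar shows mean ± SD (n = 3). FGF11 and SPRY1 separate by about 2 log2 units, FGF1 by 0.29 in the other direction, and in the other 6 genes the groups overlap.

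In the limma fit over all 24016 probe sets, a probe set was called at a Benjamini-Hochberg adjusted p below 0.05. Of the 34 member probe sets, 4 were called, all higher in large-follicle arrays: both of FGF11, that of SPRY1 and 1 of the 12 of FGF1. That is 11.8% of the member probe sets, where 12.9% of all probe sets were called (5.72% higher and 7.16% lower). Counted by gene, each read from its probe set with the highest mean, 2 of 9 members were called (22.2%), against 15.4% of all 9155 genes (7.08% higher and 8.3% lower). Nothing is read from these counts, since the members were chosen with this contrast known and the share of probe sets lies near that of the array. The median difference over the 34 probe sets was 0.06, beside 0.01 over all probe sets, and the median size was 0.11 beside 0.15. The groups did not overlap in 8 of the 34, or 23.5%, against 30.9% of all probe sets, and by gene in 3 of 9 against 36.5% of all genes.

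**Figure D2:**
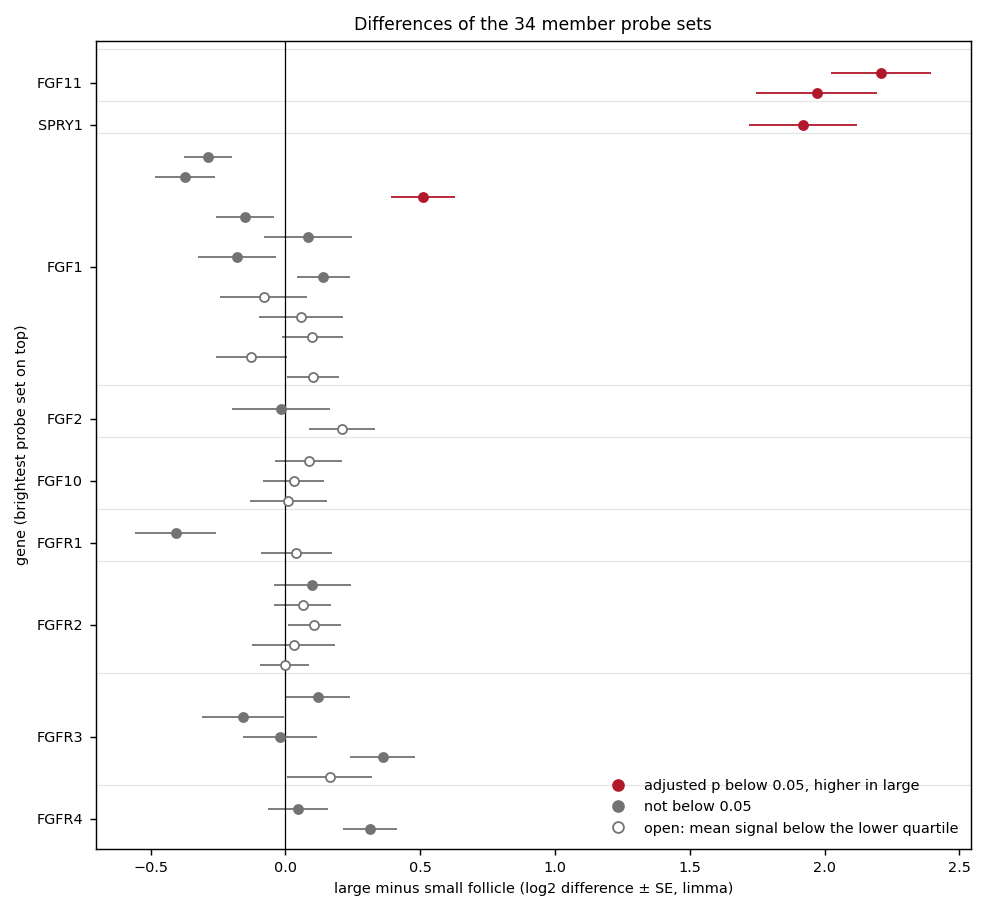
Log2 difference, large minus small follicle, with its limma SE (horizontal axis), for each of the 34 member probe sets, grouped by gene and ordered by mean signal within a gene. Red marks an adjusted p below 0.05, and open circles mark the 15 probe sets whose mean signal lies below the lower quartile of the array (3.83). FGF11 and SPRY1 stand between 1.92 and 2.21, and the other probe sets lie between -0.41 and 0.51.

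Among the ligands that act through the receptors, FGF1 could not be given a single direction. FGF1, acidic FGF, is a ligand that binds all FGF receptors and has no classical secretion signal. Its brightest probe set read 9.55, 9.54 and 9.60 in large-follicle arrays 1, 2 and 3 and 9.85, 9.91 and 9.79 in small-follicle arrays 1, 2 and 3. Every large-follicle array was lower, by a narrow margin, and the log2 difference was -0.29 ± 0.09. The next brightest read 8.13, 8.35 and 8.10 against 8.56, 8.46 and 8.68 in the same order, lower in every large-follicle array, with a difference of -0.37 ± 0.11. Neither was called, although both were called as lower with a trended robust prior, with array weights, or when probe sets below the median signal were left out.

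The remaining bright FGF1 probe set went the other way. It read 7.65, 7.89 and 7.78 in large-follicle arrays 1, 2 and 3 and 7.08, 7.31 and 7.40 in small-follicle arrays 1, 2 and 3, with no overlap and a difference of 0.51 ± 0.12. This call was lost without large-follicle array 2 (0.45) or 3 (0.51), and without small-follicle array 1 (0.42) or 2 (0.53). In the other 9 FGF1 probe sets the groups overlapped, and the differences ran from -0.18 to 0.14. The sources do not state which transcript form each probe set reads.

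**Figure D3:**
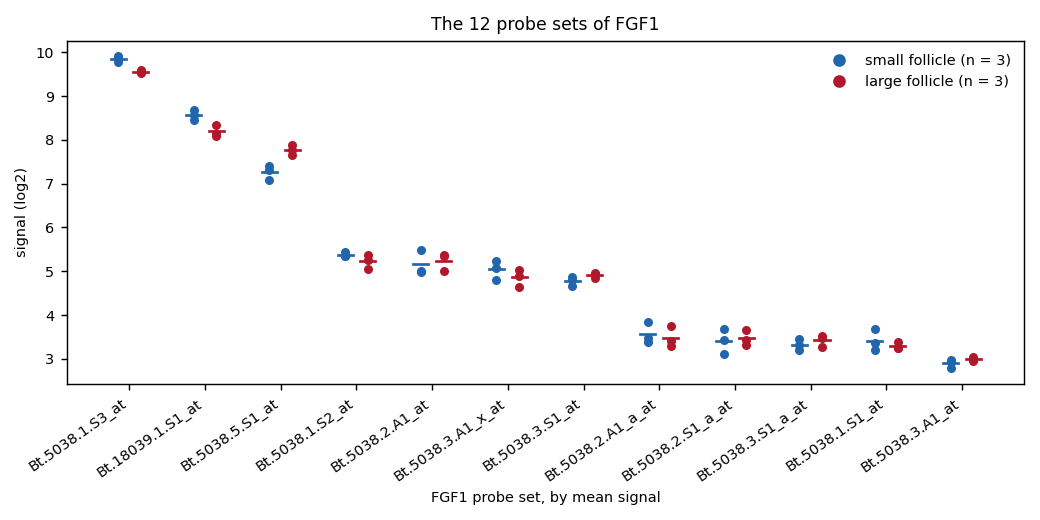
Signal (log2, vertical axis) of the 12 FGF1 probe sets, ordered by mean signal, in each small-follicle (blue) and large-follicle (red) array, with short lines at the group means (n = 3 each). The 3 brightest probe sets show no overlap between groups but differ in direction, with differences of -0.29, -0.37 and 0.51, and the 9 dimmer ones overlap.

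FGF2, basic FGF, a mitogen for granulosa cells, had no detectable difference at its brighter probe set. That probe set read 5.97, 6.25 and 5.80 in large-follicle arrays 1, 2 and 3, and 5.82, 5.85 and 6.40 in small-follicle arrays 1, 2 and 3. Large-follicle values ran from 5.80 to 6.25 and small-follicle values from 5.82 to 6.40, so the groups overlapped. The difference was -0.02 ± 0.18, with a 95% interval from -0.43 to 0.40. Its dimmer probe set read 0.21 ± 0.12, with a mean of 3.21, below the lower quartile of the array.

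FGF10, a ligand of the epithelial form of FGFR2 that the bovine oocyte and theca are known to make, gave a low signal in all 6 arrays. Its 3 probe sets had means of 3.38, 3.14 and 2.50, all below the lower quartile of 3.83. RMA gives no detection call, so whether FGF10 transcript was present cannot be read from these values. The differences were 0.09 ± 0.12, 0.03 ± 0.11 and 0.01 ± 0.14, and the groups overlapped in each.

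The receptors showed small differences. None of their 14 probe sets was called, where 12.9% of all probe sets were called. The differences ran from -0.41 to 0.36, and the median was 0.06. The groups did not overlap in 2 of the 14 (14.3%), against 30.9% of all probe sets. An adjusted p above the threshold does not show that receptor transcript was equal. Pointwise 95% intervals over the 14 probe sets reached from -0.75, at FGFR1, to 0.64, at FGFR3. The same intervals began at 1.78 and 1.46 for the FGF11 probe sets and at 1.46 for SPRY1.

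FGFR1, a receptor whose mesenchymal form binds FGF1 and FGF2, had its largest difference at its brighter probe set. Large-follicle arrays 1, 2 and 3 read 4.67, 4.77 and 4.38, and small-follicle arrays 1, 2 and 3 read 5.10, 4.75 and 5.19. Small-follicle array 2 fell just below large-follicle array 2, and otherwise the large-follicle arrays were lower, with a difference of -0.41 ± 0.15. The dimmer FGFR1 probe set read 0.04 ± 0.13 at a mean below the lower quartile.

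FGFR2, whose epithelial splice form is the receptor of FGF7 and FGF10, had 5 probe sets, of which 4 lay below the lower quartile. The brightest read 5.48, 5.0 and 5.42 in large-follicle arrays 1, 2 and 3 and 5.30, 5.07 and 5.23 in small-follicle arrays 1, 2 and 3. The groups overlapped, the difference was 0.10 ± 0.14, and the 5 differences lay between -0.003 and 0.11. Which splice form each of them reads was not examined.

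FGFR3 and FGFR4 each had 1 probe set in which the groups did not overlap, and neither was called. The brightest FGFR3 probe set read 6.58, 6.45 and 6.57 in large-follicle arrays 1, 2 and 3 and 6.62, 6.38 and 6.24 in small-follicle arrays 1, 2 and 3, a difference of 0.12 ± 0.12 with overlap. A dimmer one read 4.65, 4.39 and 4.42 against 4.31, 4.03 and 4.04, with every large-follicle array higher and a difference of 0.36 ± 0.12. The other 3 FGFR3 probe sets ran from -0.16 to 0.16.

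FGFR4 split in the same way. Of its 2 probe sets, with nearly equal means of 5.10 and 4.99, the first read 5.06, 5.05 and 5.25 in large-follicle arrays 1, 2 and 3 and 5.11, 5.19 and 4.92 in small-follicle arrays 1, 2 and 3, a difference of 0.05 ± 0.11. The second read 5.13, 5.03 and 5.27 against 4.88, 4.79 and 4.82, with no overlap and a difference of 0.31 ± 0.10. The FGFR3 and FGFR4 probe sets without overlap were called as higher under array weights, and under no other alternative.

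Some member probe sets share a source sequence and come as both A1 and S1, the parts of Affymetrix names for opposite orientations. Several of them also differ in the ending of the name. This held for 7 source sequences of FGF1, FGF10, FGFR2 and FGFR3, with 17 probe sets. By limma 0 of the 17 were called, beside 12.9% of all probe sets. These probe sets are not independent readings of their genes. The brighter FGF11 probe set and that of SPRY1 are named A1 and the dimmer FGF11 probe set S1, each from its own source sequence. Which strand each of them reads was not examined.

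FGF11 and SPRY1 followed each other from array to array. By the root mean square difference between profiles centred on their mean over 6 arrays, SPRY1 lay 0.18 log2 units from the brighter FGF11 probe set, closer than the dimmer FGF11 probe set did (0.21). The genes nearest to FGF11 were SLC2A1, the glucose transporter GLUT1 (0.14), PPP1R3B, a glycogen-targeting phosphatase subunit (0.17), and SPRY1. Those nearest to SPRY1 were PPP1R3B (0.07), NDUFA4L2, a mitochondrial protein related to a cytochrome oxidase subunit (0.15), and FGF11 through its dimmer probe set (0.15). The log2 differences of SLC2A1, PPP1R3B and NDUFA4L2 were 2.19, 1.87 and 2.02. The measure includes the difference between the groups, for which FGF11 and SPRY1 were chosen, so no test is given.

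**Figure D4:**
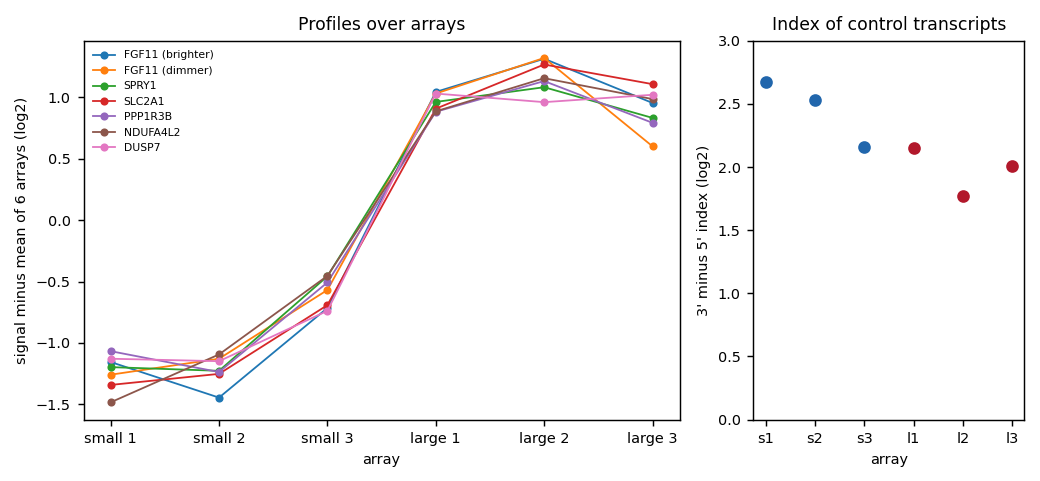
Left, signal minus the mean over 6 arrays (log2, vertical axis) for both FGF11 probe sets, SPRY1, DUSP7 and the genes nearest to FGF11 and SPRY1, in small-follicle and large-follicle arrays 1 to 3; lines join the values of a gene and imply no order. Right, the 3'-minus-5' index of each array (log2), in which s and l are small-follicle and large-follicle arrays. Small-follicle array 3 has the highest signals of its group and, at 2.16, an index next to that of large-follicle array 1, at 2.15.

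One measure of RNA quality also separated the groups, in the direction opposite to FGF11 and SPRY1. For each of 6 control transcripts the 5' signal was subtracted from the 3' signal, and the average of these, the 3'-minus-5' index, was 2.15, 1.77 and 2.01 in large-follicle arrays 1, 2 and 3 and 2.68, 2.53 and 2.16 in small-follicle arrays 1, 2 and 3. Every small-follicle array had a higher index than every large-follicle array. The p-value was 0.1 in a 2-sided exact permutation test, which cannot go lower with 3 arrays a group. With the index as a covariate, limma called 215 of 24016 probe sets in place of 3094. FGF11 was still called at its brighter probe set, at 1.74 ± 0.22, and SPRY1 at 1.36 ± 0.22. The dimmer FGF11 probe set, at 1.37 ± 0.26, and the FGF1 probe set, at 0.24 ± 0.15, were no longer called. Because the index separates the groups, group and index can hardly be told apart in this fit. A call kept or lost in it does not show whether a gene depends on RNA quality.

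Position on the chromosome, which the choice of members did not use, was read from the RefSeq order of ARS-UCD2.0. Of the 3 genes on each side of FGF11, 3 were measured. The immediate neighbours TMEM102 and CHRNB1, a subunit of the muscle acetylcholine receptor, differed by 0.42 ± 0.13 (limma, Benjamini-Hochberg adjusted p = 0.0789) and 0.25 ± 0.11 (adjusted p = 0.189), and the next gene, ZBTB4, a zinc finger protein, rose by 1.01 ± 0.13 (adjusted p = 0.00315). Adjusted for the 3'-minus-5' index ZBTB4 read 0.68 and was not called (adjusted p = 0.0851). Beside SPRY1, only ANKRD50 was measured, with a difference of 0.04 ± 0.10 (adjusted p = 0.854). SPRY1 lies near FGF2 on the same chromosome. Of the 3 genes on each side of FGF2, 2 were measured. CETN4 fell by 0.80 ± 0.15 (limma, adjusted p = 0.0133), and IL21 read 0.14 ± 0.10 (adjusted p = 0.443). Of all genes 15.4% were called, and nothing is read from so few neighbours. These neighbours were looked at after the member values had been seen.

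Besides SPRY1, 3 inhibitors of receptor tyrosine kinase or ERK signalling rose. The list holds 17 feedback inhibitors without SPRY1, of which 7 had a probe set; 0 fell and 4 did not pass, a share of 42.9% called, where 15.4% of all genes were called and 7.08% were called higher. The median difference was 0.35, beside 0.01 over all genes. The pathway and marker lists were chosen with earlier results of these data known. Their shares are therefore a description and support nothing by themselves. DUSP7, a dual-specificity phosphatase that inactivates ERK, read 9.53, 9.46 and 9.52 in large-follicle arrays 1, 2 and 3 and 7.37, 7.35 and 7.76 in small-follicle arrays 1, 2 and 3. The large-follicle arrays were nearly identical and lay far above the others, and DUSP7 rose by 2.01 ± 0.13 (limma, Benjamini-Hochberg adjusted p = 0.000593), 4.03-fold. Adjusted for the 3'-minus-5' index it read 1.78, and it was the only gene of all the pathway lists still called (adjusted p = 0.0288; across all alternatives its adjusted p lay between 0.000112 and 0.0288).

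The other inhibitors that rose act on receptors at the membrane. ERRFI1, which binds and inhibits EGF receptors, rose by 1.34 ± 0.17 (limma, Benjamini-Hochberg adjusted p = 0.00271), and its other 3 probe sets were called too, at 1.32, 0.64 and 0.48. LRIG3, a leucine-rich repeat membrane protein, rose by 1.05 ± 0.24 (adjusted p = 0.0269). The LRIG3 call was lost without large-follicle array 1 (1.08) or 2 (0.89), and without small-follicle array 1 (0.91) or 2 (0.90). SPRY2, the Sprouty most like SPRY1 in function, read 6.44, 6.65 and 6.52 in large-follicle arrays against 6.16, 6.57 and 6.63 in small-follicle arrays, a difference of 0.08 ± 0.14 (adjusted p = 0.77). SPRED1, a Sprouty-related inhibitor, read -0.35 ± 0.13 (adjusted p = 0.121). SPRY4, SPRED2 and DUSP6 were not analysed here.

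In the signalling chain below the receptors, the 18 adaptors and kinases with a probe set gave 2 rises, 0 falls and 16 that did not pass. That is 11.1% called, near the 15.4% of all genes, with a median of 0.08. MAP2K1, the kinase MEK1 that phosphorylates ERK, averaged 8.79 ± 0.10 against 8.07 ± 0.06 (SD, n = 3 each) and rose by 0.72 ± 0.10 (limma, Benjamini-Hochberg adjusted p = 0.0036). RPS6KA1, a ribosomal S6 kinase downstream of ERK, rose by 0.40 ± 0.11 (adjusted p = 0.0463), a call lost without any 1 of the 6 arrays (0.33 to 0.44). FRS2, the adaptor of FGF receptors, was not analysed here.

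Genes that ERK signalling is known to induce went both ways. Among the 12 with a probe set there were 3 rises, 1 fall and 8 that did not pass (33.3% called, against 15.4% of all genes), and the median difference was 0.003. KLF10, a zinc finger transcription factor, rose by 1.15 ± 0.25 (limma, Benjamini-Hochberg adjusted p = 0.0211), IER3, an immediate early protein, by 1.02 ± 0.15 (adjusted p = 0.00468) and FOSL1, an AP-1 subunit, by 0.64 ± 0.14 (adjusted p = 0.0237). FOS, the best known immediate early AP-1 gene, fell by 0.66 ± 0.12 (adjusted p = 0.0106), and by 0.84 at its other probe set. KLF10 was not called without large-follicle array 1 (1.18) or 2 (0.92) or small-follicle array 1 (0.97) or 2 (1.11), and FOSL1 without large-follicle array 1 (0.60) or 2 (0.62) or small-follicle array 2 (0.69). ETV4 and ETV5, which are closer readouts of FGF signalling, were not analysed here.

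**Figure D5:**
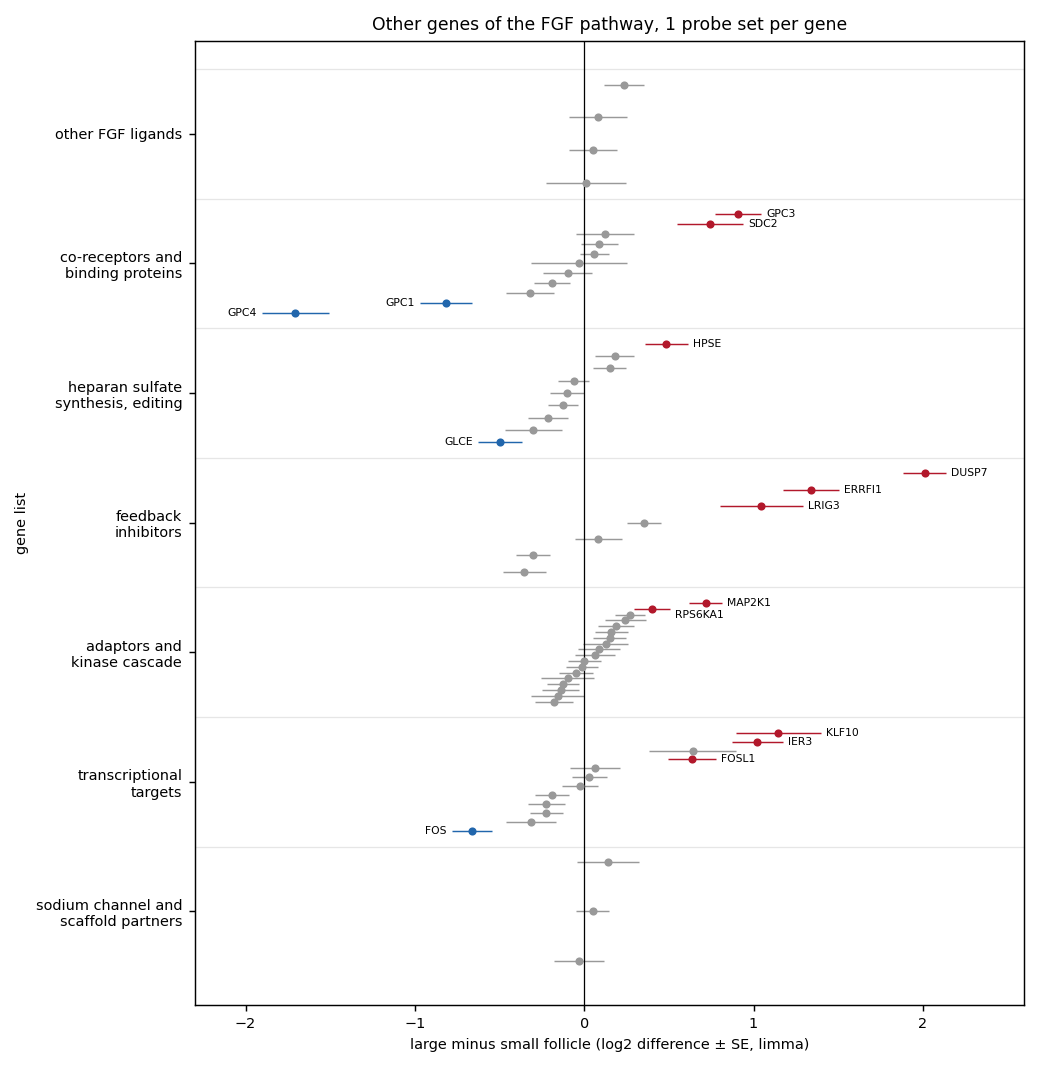
Log2 difference, large minus small follicle, with its limma SE (horizontal axis), for the other genes of the FGF pathway, grouped by list, each read from its probe set with the highest mean. Red and blue mark genes called higher and lower at an adjusted p below 0.05, and called genes are named. The feedback inhibitors reach 2.01 at DUSP7, and the glypican GPC4 lies lowest at -1.71.

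On the cell surface, the heparan sulfate carriers that present FGFs to their receptors moved in opposite directions. The 11 co-receptors and binding proteins with a probe set gave 2 rises, 2 falls and 7 that did not pass (36.4% called, against 15.4% of all genes), and the median was -0.03. The glypican GPC4, a membrane-anchored proteoglycan, read 7.05, 6.46 and 7.16 in large-follicle arrays 1, 2 and 3 and 8.72, 8.74 and 8.33 in small-follicle arrays 1, 2 and 3, and fell by 1.71 ± 0.20 (limma, Benjamini-Hochberg adjusted p = 0.00208), 3.26-fold. GPC1 fell by 0.82 ± 0.16 (adjusted p = 0.0129), while GPC3 rose by 0.91 ± 0.14 (adjusted p = 0.00534). The syndecan SDC2 rose by 0.74 ± 0.20 (adjusted p = 0.042) and by 0.71 at its other probe set, and its brighter probe set lost the call when large-follicle array 1 (0.83), 2 (0.57) or 3 (0.82) or small-follicle array 1 (0.83) or 2 (0.56) was left out. Adjusted for the 3'-minus-5' index, GPC1 read -0.35 and GPC4 -1.17, and none of the 4 was called.

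The decoy receptor FGFRL1, which binds FGFs but lacks a kinase domain, read -0.32 ± 0.14 (limma, Benjamini-Hochberg adjusted p = 0.198), and KLB, the co-receptor of endocrine FGFs, 0.12 ± 0.17 (adjusted p = 0.719). KL was not analysed here. Of 9 measured enzymes that make or edit heparan sulfate, 1 rose and 1 fell (22.2% called, near the 15.4% of all genes): HPSE, the heparanase that cleaves the chains, by 0.48 ± 0.13 (adjusted p = 0.042), and GLCE, an epimerase of the chains, at -0.50 ± 0.13 (adjusted p = 0.0396). HPSE lost its call without large-follicle array 1 (0.47) or 2 (0.40) or small-follicle array 1 (0.41), 2 (0.56) or 3 (0.48), and its other probe set read 0.41 and was not called. GLCE lost its call without large-follicle array 2 (-0.49) or 3 (-0.40) or small-follicle array 1 (-0.55), 2 (-0.51) or 3 (-0.44), and under array weights (-0.42).

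Of the 17 genes listed as other FGF ligands 4 were measured: FGF8, and FGF12, FGF13 and FGF14 of the intracellular branch. Among these, by limma 0 passed and 0 had an unadjusted p below 0.05. Of all 9155 genes 15.4% were called and 2857 had an unadjusted p below 0.05, so nothing is read from counts over so few genes. FGF8, which the mouse oocyte is known to supply to cumulus cells, read 0.23 ± 0.12 (Benjamini-Hochberg adjusted p = 0.26), and its other probe set -0.18. The relatives of FGF11 in the intracellular branch were not called: FGF12 read 0.01 ± 0.23, FGF13 0.08 ± 0.17 and FGF14 0.05 ± 0.14 (limma adjusted p = 0.986, 0.827 and 0.865). FGF14 averaged below the lower quartile of the array. Of 16 listed sodium channel subunits and scaffold partners of this branch only SCN4B, MAPK8IP1 and MAPK8IP2 were measured, named for their small number. By limma 0 passed and 0 had an unadjusted p below 0.05, beside the same shares of all genes, and SCN4B averaged below the lower quartile. FGF9 and FGF18 were not analysed here.

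Markers of other cells were read beside these genes, since in pooled cells fewer cells of a type and less RNA per cell cannot be told apart. Each count below stands beside 7.08% of all genes called higher and 8.3% called lower. Of 13 measured granulosa and cumulus markers, 6 rose and 1 fell, GATM, named for being alone, and their mean level was 10.76 to 10.85 in large-follicle arrays and 10.24 to 10.40 in small-follicle arrays. CYP19A1 rose by 2.14 ± 0.22, CYP11A1 by 1.72 ± 0.16, INHBA by 1.14 ± 0.10 and FSHR by 0.56 ± 0.13 (limma, Benjamini-Hochberg adjusted p = 0.00141, 0.00107, 0.00107 and 0.0258). The FSHR call was lost without any 1 of the large-follicle arrays (0.51 to 0.61) or without small-follicle array 1 (0.56) or 2 (0.46). It was also lost with a block on replicate number and, at 0.29, when adjusted for the 3'-minus-5' index. Of 12 theca and stromal markers 1 rose, TAGLN by 1.67 ± 0.33 (adjusted p = 0.0152), a call lost without large-follicle array 2 (1.57) or small-follicle array 2 (1.61) and, at 0.62, when adjusted for the index. Other theca and stromal markers differed widely in both directions without passing, picked here after their values were seen: PDGFRA read 1.37 ± 0.42, COL1A2 -1.08 ± 0.31 and COL3A1 -1.04 ± 0.47 (adjusted p = 0.0683, 0.0539 and 0.201). The other PDGFRA probe sets read 0.07 and -0.06, that of COL1A2 -1.29 and that of COL3A1 -1.14, and none was called. The mean level of the list was 6.08 to 6.61 against 5.81 to 6.46, and CYP17A1, the defining enzyme of theca, read 0.12 ± 0.19 (adjusted p = 0.746).

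Of 12 leukocyte markers 2 rose, CORO1A by 0.62 and LCP1 by 0.89, the level was 4.36 to 5.17 against 4.07 to 4.52, and PTPRC, the pan-leukocyte marker, averaged 3.57 and 3.49, below the lower quartile. Both calls were lost without large-follicle array 1 (0.50 for CORO1A and 0.69 for LCP1) or 2 (0.66 and 0.85), and without small-follicle array 1 (0.58 and 0.79) or 2 (0.53 and 0.78). They were also lost with a block on replicate number, under cyclic loess and when adjusted for the index, and that of LCP1 also under renewed quantile normalization. Over the 12 markers 11 differences were positive and 1 negative, with a median of 0.36 beside 0.01 over all genes. CD14, CD68, AIF1, TYROBP and CSF1R, picked here after their values were seen, differed by 1.02, 0.79, 0.58, 0.51 and 0.22, and none was called. In large-follicle array 1 these genes read 6.70, 6.06, 7.09, 6.41 and 7.10, their highest of the 6 arrays. In small-follicle array 3 they read 5.21, 5.16, 6.36, 5.57 and 6.13, the highest of that group except for CSF1R. The other CD14 probe set differed by 0.19 and was not called.

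Of 10 endothelial markers 0 rose and 2 fell, TEK by 0.57 and FLT1 by 0.74, at a level of 3.81 to 3.99 against 3.80 to 4.03. Over the 10 markers 7 differences were positive and 3 negative, with a median of 0.10 beside 0.01 over all genes. TEK averaged below the lower quartile, and the other FLT1 probe sets read -0.09 and 0.11 and were not called. The FLT1 call was lost without large-follicle array 1 (-0.72) or 3 (-0.66) or small-follicle array 1 (-0.55) or 2 (-0.82), and both calls when adjusted for the index. Of 8 epithelial markers only KRT18 rose, by 1.91 ± 0.15 (limma, Benjamini-Hochberg adjusted p = 0.000906), and the level was 5.16 to 5.37 against 4.99 to 5.08. That level includes KRT18 and was not computed without it. Over the 8 markers 5 differences were positive and 3 negative, with a median of 0.10. Of 7 oocyte markers 0 passed by limma, with 1 at an unadjusted p below 0.05, and the level was 4.32 to 4.36 against 4.18 to 4.36. RMA values hold no zero, so the absence of a marker cannot be read. The part of other cells, and of RNA quality beyond the values given, in the differences of FGF11, SPRY1 and DUSP7 was not tested.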

How the data were processed

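RNA of 6 pools of cumulus cells was measured on Affymetrix bovine arrays. The deposited log2 probe set signals were made by the authors with RMA, per the submitters' processing notes, which name no version. The table has 24128 probe sets, and 112 controls were removed. Of the remaining 24016, 13292 carry 1 gene symbol, 86 several and 10638 none, and 13263 matched RefSeq (ARS-UCD2.0) by gene identifier. That table was used for names and gene order only.

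The comparison, large minus small, used lmFit and eBayes of limma 3.58.1 under R 4.3.3, without block or filter and with 4.28 prior degrees of freedom, with Benjamini-Hochberg adjustment over 24016 probe sets at 0.05. The procedure was tested on simulated data. A gene was read from its probe set with the highest mean over the 6 arrays. Intervals are pointwise. Text names all members, fixed pathway and marker genes, up to 4 called genes with the smallest p per pathway list (3 per marker list) and the 3 genes nearest in profile to each called member. Members, lists and rules were chosen with earlier results of these data known. A planned motif search was not run, since no promoter sequence was used here. Alternatives tried were filters on signal, other scalings, each array left out, a block on replicate number, array weights, a trended robust prior, fewer probe sets, gene means and the 3'-minus-5' index. Figures were drawn with matplotlib 3.10.9 in python 3.11.15.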

Additional observations from a re-analysis of the deposited data

How the results depend on the processing

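FGF11 at its brighter probe set, SPRY1 and DUSP7 were called as higher in all 16 alternatives that could be fitted per probe set, with log2 differences of 1.74 to 2.41, 1.36 to 2.17 and 1.78 to 2.14. The dimmer FGF11 probe set was called in 15 of 16 (1.37 to 2.18), the exception being the fit adjusted for the 3'-minus-5' index. FGF11, SPRY1 and the called pathway genes, each at its probe set with the highest mean, kept their sign under these alternatives; second probe sets of pathway genes were not run. For members whose groups do not overlap the sign is fixed when 1 array is left out. The number of member genes called was 2 or 3, with FGF1 added as lower under a trended robust prior, array weights or the filter at the median. Leaving out 1 array gave 1615 to 2477 called probe sets in place of 3094, and 8 to 12 called pathway genes in place of 15. The replicate block gave 1964 probe sets and 9 pathway genes, with SDC2, GLCE, HPSE, LRIG3, RPS6KA1 and FOSL1 no longer called. Whether same-numbered arrays share a collection is not stated in the labels. The correlations of their deviations, -0.002, -0.05 and -0.34, cannot settle this with 3 arrays per group. The index as a covariate gave 215 probe sets and 1 pathway gene. The cause was not tested. Under the other alternatives these counts stayed within 1.5 times. Low signal limits FGF10, most FGFR2 probe sets and FGF14.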
